A study of Homo sapiens with 30 samples.

Results

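The 10 genes described here encode heat shock proteins and their partners: HSPA1A, HSPA1B, HSPA8, HSPH1, HSP90AA1, HSPB1, HSPD1, HSPE1, DNAJB1 and BAG3. They were chosen by name, each matched a single row among the 60675 Ensembl gene rows of the deposited table, and all 10 passed the filter on low counts that kept 16083 genes. Heat shock proteins are molecular chaperones: HSP70 proteins bind unfolded stretches of a client protein in cycles driven by ATP, J-domain proteins hand clients over and start the cycle, nucleotide exchange factors end it, and HSP90, small heat shock proteins and the mitochondrial chaperonin act before or after it. When misfolded proteins accumulate, the transcription factor HSF1 is freed from chaperones, assembles into trimers and binds inverted repeats of GAA, called heat shock elements, ahead of these genes. HSPA1A and HSPA1B are the classic inducible members, whereas HSPA8 is abundant in unstressed cells, and in hepatocytes the whole network serves a high load of secreted and metabolic proteins.

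RNA sequencing measured these transcripts in HepG2 cells, an established human liver cancer line, 24 h after ethanol extracts of tonifying herbal formulas were added. Extracts were given at 20 (low), 100 (medium) or 500 µg/mL (high): each dose was sequenced in 3 libraries for Palmul-tang and for Sibjeondaebo-tang, in 2 for Samul-tang and in 1 for Sagunja-tang, which makes 27 extract libraries, and 3 vehicle libraries received 0.1% DMSO according to the sample labels. By tradition the Samul-tang and Sagunja-tang herbs together make up Palmul-tang, to which Astragalus and cinnamon are added for Sibjeondaebo-tang. The question taken up here is whether each heat shock transcript differed from vehicle, and, separately, whether it followed the dose of extract.

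Library totals ran from 21570416 to 37707232 expected counts. Nothing in the labels says that replicates came from separate cultures, so the p-values speak only to the spread among these libraries, which may be technical. The label codes carry 3 prefixes: vehicle has one of its own, Samul-tang and Sagunja-tang share another, and Palmul-tang and Sibjeondaebo-tang share a further one, although the titles name 1 batch for all 30 libraries. Extract and library set therefore cannot be told apart in any comparison with vehicle, whereas the dose comparisons, and Sibjeondaebo-tang against Palmul-tang, lie within a set. Transcripts outside the heat shock genes separated vehicle from the rest in the same way: the nuclear noncoding RNA MALAT1 was at 235 to 336 CPM (TMM-scaled CPM, the share of a library's counts) in the extract libraries against 391 to 426 CPM in vehicle, and the unnamed gene ENSG00000280800 at 47.2 to 121 CPM against 852 to 1158 CPM. Blood and endothelial markers summed to at most 3.17 CPM in any library. MALAT1 and ENSG00000280800 were picked after their values were known, and the part of such a set difference in the heat shock results was not tested. Mitochondrial transcripts took 11.2% to 19.7% of counts in the extract libraries, with 17.2% to 19.4% in Sibjeondaebo-tang high, and 12.4% to 14.5% in vehicle. All 9 hepatocyte markers were present in every library, with summed levels of 54010 to 65120 CPM in extract libraries and 57510 to 59560 CPM in vehicle. Fibroblast markers summed to 21.8 CPM in Sibjeondaebo-tang low replicate 3 and to at most 0.615 CPM in every other library. The member tests were therefore also run without that library, and calls lost without it are given. The sum of HSPA1A and HSPA1B and the counts of other chaperone lists were not recomputed without it.

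The stretch ahead of the transcription start was read for heat shock elements in RefSeq promoter sequences of build GRCh38.p14, since shared elements are what links these genes in textbooks. Each stretch below holds the 250 bases before a RefSeq start, 5′ to 3′ on the gene's own strand, and capitals mark every base in a match to GAANNTTC or TTCNNGAA, the forms that neighbouring inverted GAA units take. Both motifs read the same on either strand, and matches may overlap. HSPA1A and HSPA1B are shown because they are the inducible pair and share reads, HSPA8 because it had the next largest difference from vehicle, and HSP90AA1 and HSPD1 because they hold the same kind of element as HSPA8 and differed little or not at all. The stretches are chr6:31815293-31815542 (plus strand) for HSPA1A, chr6:31827488-31827737 (plus strand) for HSPA1B, chr11:123062137-123062386 (minus strand) for HSPA8, chr14:102087045-102087294 (minus strand) for HSP90AA1 and chr2:197499841-197500090 (minus strand) for HSPD1. For HSP90AA1 and HSPD1, which have more than 1 RefSeq start, the stretch with matches is printed, and RefSeq starts need not be those of the gene positions given further on.
HSPA1A: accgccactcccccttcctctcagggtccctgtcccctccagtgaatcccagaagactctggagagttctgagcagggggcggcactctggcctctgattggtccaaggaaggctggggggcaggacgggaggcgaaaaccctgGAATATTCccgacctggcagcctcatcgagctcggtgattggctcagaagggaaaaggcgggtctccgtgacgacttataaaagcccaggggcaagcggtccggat
HSPA1B: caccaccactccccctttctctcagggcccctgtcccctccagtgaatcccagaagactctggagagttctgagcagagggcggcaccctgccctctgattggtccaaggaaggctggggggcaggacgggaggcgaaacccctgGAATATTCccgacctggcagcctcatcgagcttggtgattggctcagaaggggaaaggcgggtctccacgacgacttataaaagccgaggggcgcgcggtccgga
HSPA8: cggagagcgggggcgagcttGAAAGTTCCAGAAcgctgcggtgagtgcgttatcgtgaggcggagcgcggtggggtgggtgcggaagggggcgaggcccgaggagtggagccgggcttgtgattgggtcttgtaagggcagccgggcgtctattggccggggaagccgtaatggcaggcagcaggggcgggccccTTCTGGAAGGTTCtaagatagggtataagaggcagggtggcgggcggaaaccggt
HSP90AA1: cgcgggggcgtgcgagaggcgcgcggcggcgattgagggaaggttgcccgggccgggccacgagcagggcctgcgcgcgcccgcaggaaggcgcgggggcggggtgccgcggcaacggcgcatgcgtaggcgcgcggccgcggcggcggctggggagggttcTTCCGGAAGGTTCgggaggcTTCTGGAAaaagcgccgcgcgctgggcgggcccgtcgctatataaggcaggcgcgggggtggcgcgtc
HSPD1: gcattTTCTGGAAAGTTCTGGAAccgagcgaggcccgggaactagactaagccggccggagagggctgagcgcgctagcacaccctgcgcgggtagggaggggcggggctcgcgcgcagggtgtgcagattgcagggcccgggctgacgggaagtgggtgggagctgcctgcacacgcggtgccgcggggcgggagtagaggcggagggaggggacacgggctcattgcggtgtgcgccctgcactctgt

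A match to either motif lay in the promoter of 7 of the 10 genes (these 5, HSPB1 and DNAJB1). Counted by promoter, it lay in 7 of the 14 RefSeq promoters of these genes and in 11.6% of all 35116 of the same length. A run of 3 neighbouring units in the form GAANNTTCNNGAA or TTCNNGAANNTTC lay in HSPA8, HSP90AA1 and HSPD1 and in 0.441% of all promoters. The single GAATATTC of HSPA1A stood 98 bases before the start and that of HSPA1B 97 bases before it, and the printed stretches of this pair were identical at 235 of 249 aligned bases, or 94.4%. No match was found in these windows of HSPH1, BAG3 or HSPE1, which says only that these letters are absent there. The matches are a description of sequence. HSPA8, with runs of such units, was called higher than vehicle at 9 of 9 doses, and HSPD1, also with a run, at 1. HSPH1 and BAG3, with no match in these windows, were called at 9 of 9. Whether the motifs bear on these calls was not tested.

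Transcripts of 5 genes of the HSP70 system (HSPA1A, HSPA1B, HSPA8, HSPH1 and BAG3) were higher than vehicle at every dose of the 3 formulas with replicates. For HSPA1A and HSPA8 the step from vehicle to 20 µg/mL was larger than that from 20 to 500 µg/mL. The same held for the sum of HSPA1A and HSPA1B, while HSPA1B alone did not pass that test. HSPA1A stood at 108 to 139 CPM in the 27 extract libraries and at 55.8 to 61.6 CPM in the 3 vehicle libraries. The 5 genes passed the test against vehicle (edgeR's quasi-likelihood test with Benjamini-Hochberg adjustment over all 16083 genes, adjusted p under 0.05) at all 9 combinations of formula and dose, with log2 fold changes from 0.28 to 1.16. HSP90AA1 passed at 7 of the 9, HSPB1 at 5, DNAJB1 at 3, HSPD1 at 1 and HSPE1 at none, and no member was called lower. The largest high-minus-low difference of any member was 0.29 on the log2 scale, for BAG3 with Sibjeondaebo-tang. For HSPD1 it was 0.18 with Sibjeondaebo-tang and 0.15 with Palmul-tang, while its log2 fold changes over vehicle reached at most 0.14.

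By comparison, the members called higher than vehicle numbered 7 of 10 with Palmul-tang low, 8 with medium and 7 with high, where 11.5%, 11.6% and 16.3% of all tested genes were called higher. With Sibjeondaebo-tang they numbered 6, 7 and 9 from low to high, against 11.5%, 15.3% and 19.3% of all genes. With Samul-tang they numbered 6, 6 and 5, against 6.47%, 10.3% and 9.82%. The shares with Samul-tang rest on 2 libraries per dose, and the pair at the medium dose had a mean chi-square per gene of 30.9 relative to counting noise, beside 2.92 to 18.8 for every other replicate pair. At that dose 460 genes were called higher without replicate 2, against 1649 with it, and at the low dose 369 without replicate 3, against 1041 with it. Without Sibjeondaebo-tang low replicate 3, the count at that dose was 5, with HSP90AA1 no longer called. No member was called lower in any of the 9, where 11.7%, 10.8% and 15.6% of all genes were with Palmul-tang, 11.5%, 14.8% and 16.7% with Sibjeondaebo-tang and 4.79%, 9.57% and 8.69% with Samul-tang from low to high dose. The median log2 fold change over the 10 members lay between 0.25 (Sibjeondaebo-tang low) and 0.36 (Palmul-tang high), while the median over all tested genes lay between -0.011 and 0.0014. In 6 of the 10 genes every extract library, Sagunja-tang included, lay above every vehicle library, which held for 5.25% of all tested genes. These are HSPA1A, HSPA1B, HSPA8, HSPH1, HSP90AA1 and BAG3, and the plot of every library by dose shows their vehicle points standing clear of the rest. All 9 comparisons use the same 3 vehicle libraries, so they are not independent of each other. CPM are shares of the RNA of a whole culture, so more cells that carry a transcript and more of it per cell cannot be told apart.

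**Figure D1:**
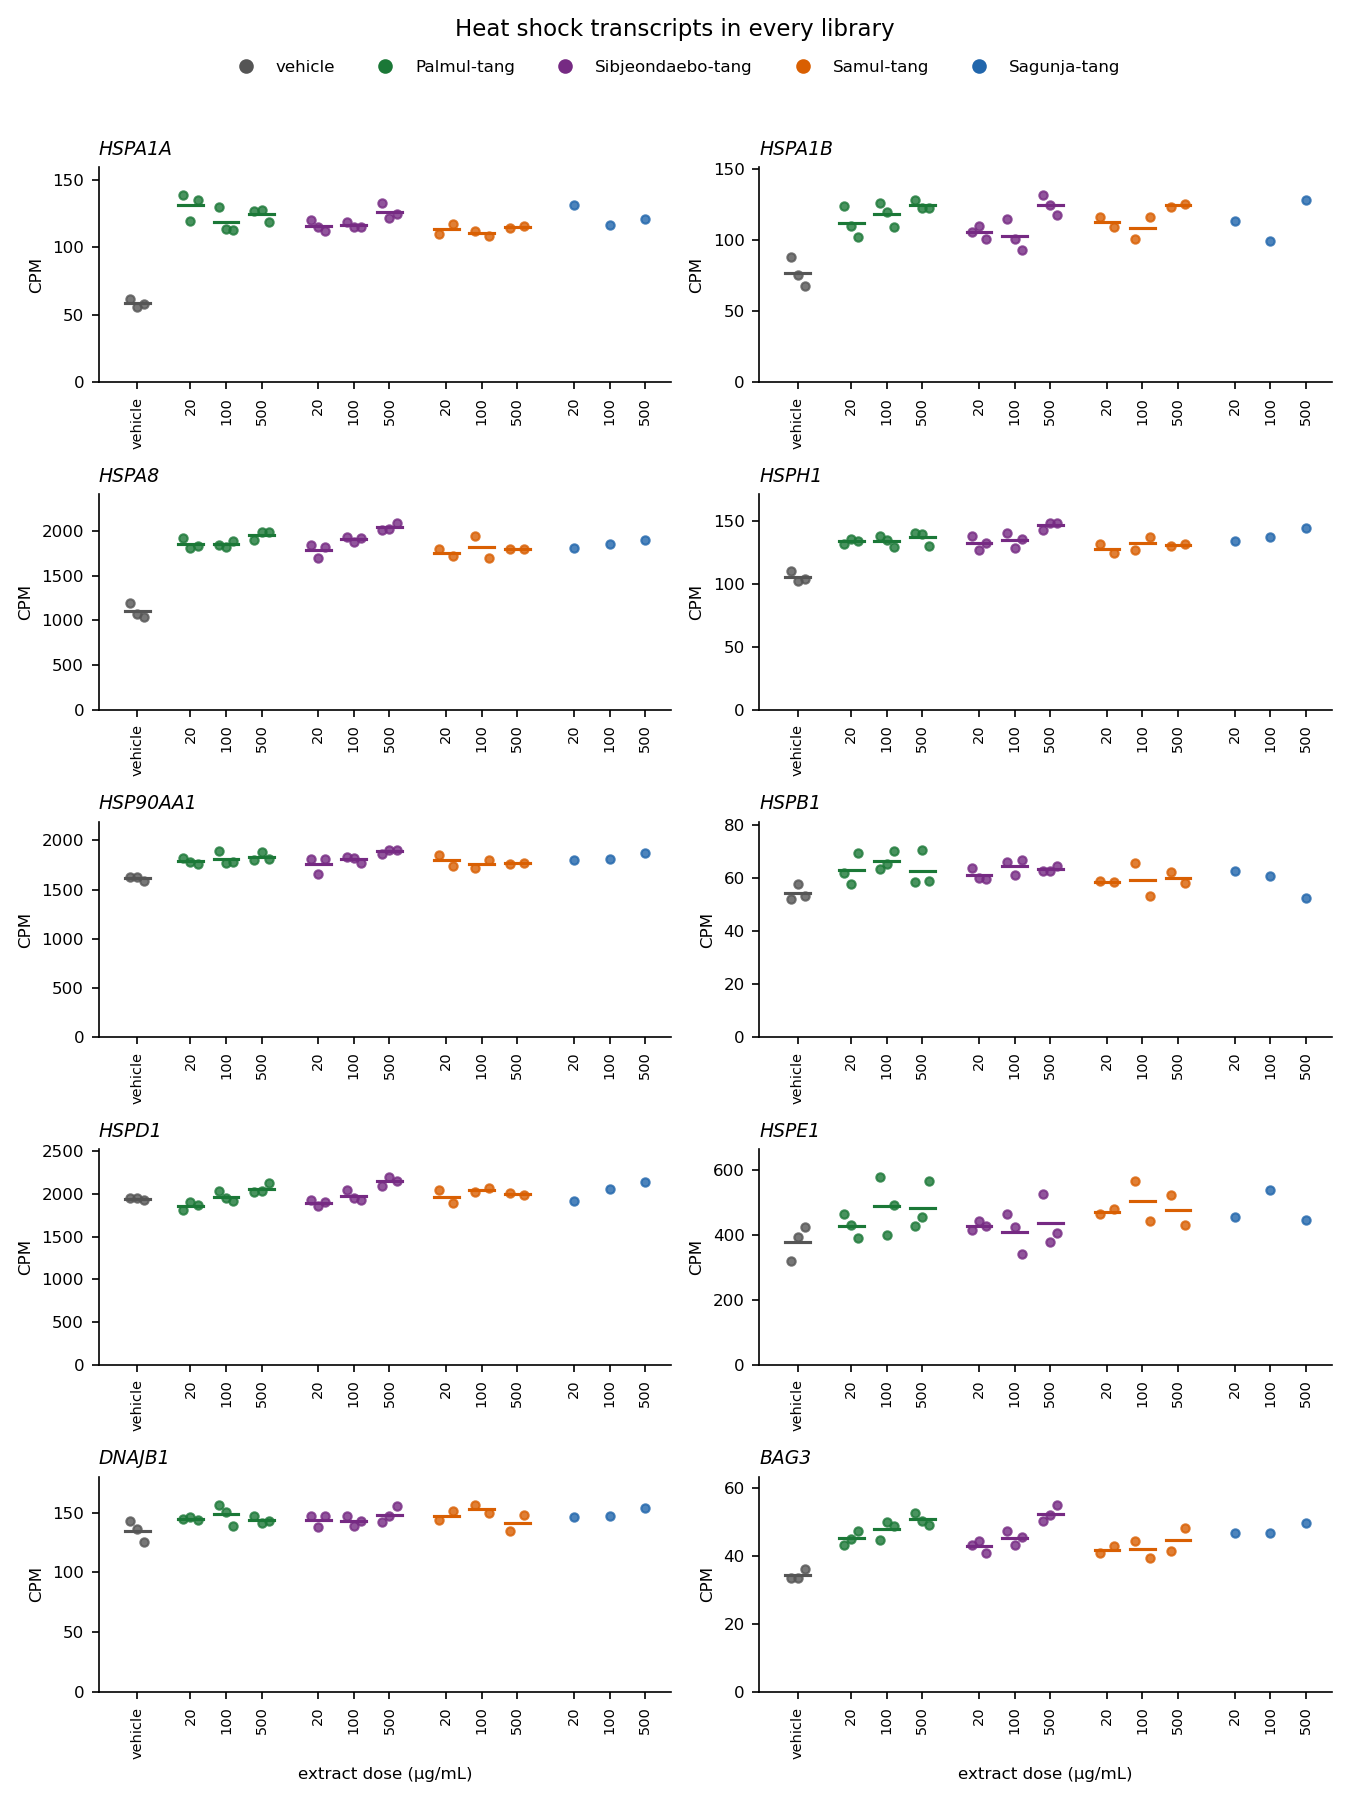
CPM of each heat shock gene in every library (points) with the mean of groups of 2 or 3 libraries (bars), by extract dose in µg/mL and with vehicle at the left. HSPA1A lies at 108 to 139 CPM in extract libraries and 55.8 to 61.6 CPM in vehicle, whereas HSPD1 libraries of the low doses lie among or below the vehicle libraries in Palmul-tang and Sibjeondaebo-tang.

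HSPA1A (chromosome 6, 31815464 to 31817946 in GENCODE 29, GRCh38) encodes the inducible HSP70. With Palmul-tang its 3 libraries per dose had 139, 119.7 and 135 CPM at 20 µg/mL, 129.9, 114 and 113 CPM at 100 µg/mL and 127, 128 and 119 CPM at 500 µg/mL. With Sibjeondaebo-tang they had 119.8, 115 and 112 CPM at 20 µg/mL, 119, 115 and 115 CPM at 100 µg/mL and 133, 121 and 125 CPM at 500 µg/mL, and with Samul-tang, 2 libraries per dose, 109.5 and 117 CPM at 20 µg/mL, 112 and 109 CPM at 100 µg/mL and 114 and 116 CPM at 500 µg/mL. The vehicle libraries had 61.6, 55.8 and 58.1 CPM. Every extract library was thus above every vehicle library by a wide margin. The doses of Palmul-tang overlapped one another. With Sibjeondaebo-tang the high-dose libraries lay above all of the low and medium doses, and with Samul-tang they lay above the medium dose but within the range of the low dose. The log2 fold changes over vehicle from low to high dose were 1.16 ± 0.058, 1.02 ± 0.058 and 1.09 ± 0.058 (SE) under Palmul-tang, 0.98 ± 0.057, 0.99 ± 0.058 and 1.11 ± 0.058 under Sibjeondaebo-tang and 0.96 ± 0.063, 0.92 ± 0.063 and 0.98 ± 0.063 under Samul-tang. Their adjusted p-values by edgeR's quasi-likelihood test ran from 2.94e-15 to 2.11e-11.

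Ordered by group mean, HSPA1A was highest with Palmul-tang low at 131 ± 10.0 CPM (SD, n = 3), followed by Sibjeondaebo-tang high at 126 ± 5.82 CPM, Palmul-tang high at 124 ± 5.12 CPM and Palmul-tang medium at 119 ± 9.52 CPM (SD, n = 3 each). Sibjeondaebo-tang medium (116 ± 2.07 CPM) and low (116 ± 3.91 CPM) came next, close to Samul-tang high (115 ± 1.48 CPM, n = 2), low (114 ± 5.58 CPM, n = 2) and medium (110.4 ± 2.57 CPM, n = 2). Neighbours in this order differed by less than the spread of their libraries, apart from the step down to vehicle at 58.5 ± 2.93 CPM (SD, n = 3). Single Sagunja-tang libraries had 131 CPM at 20 µg/mL, 117 CPM at 100 µg/mL and 121 CPM at 500 µg/mL, within the range of the other formulas.

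HSPA1B (chromosome 6, 31827735 to 31830255) lies next to HSPA1A and encodes nearly the same protein. Its 3 Palmul-tang libraries per dose had 124, 110.3 and 102 CPM at 20 µg/mL, 126, 119.7 and 109 CPM at 100 µg/mL and 128, 123 and 123 CPM at 500 µg/mL, and its Sibjeondaebo-tang libraries had 106, 110.3 and 101 CPM at 20 µg/mL, 115, 101 and 93.2 CPM at 100 µg/mL and 132, 125 and 118 CPM at 500 µg/mL. Samul-tang gave 116 and 109 CPM at 20 µg/mL, 101 and 117 CPM at 100 µg/mL and 124 and 126 CPM at 500 µg/mL, and vehicle 88.0, 75.8 and 67.9 CPM. The groups did not overlap with vehicle, although the vehicle libraries were more scattered than for HSPA1A. Log2 fold changes over vehicle were 0.54, 0.62 and 0.69 under Palmul-tang, 0.45, 0.42 and 0.69 under Sibjeondaebo-tang and 0.54, 0.49 and 0.69 under Samul-tang from low to high dose, all with an SE of at most 0.097 and an adjusted p of at most 0.00108 in the same test. These were smaller than the HSPA1A values in each comparison, a difference between genes that was not itself tested. The HSPA1B call was lost under an alternative at Sibjeondaebo-tang medium (adjusted p up to 0.0579) and at Samul-tang medium (up to 0.0556).

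The transcripts of HSPA1A and HSPA1B are identical at 95.04% of aligned bases, and 69.9% of the 100-base windows of HSPA1A occur unchanged in HSPA1B, so the deposited counts divide many reads between them by estimate. The summed counts do not depend on that division. They came to 208 to 265 CPM in the extract libraries against 149.6, 132 and 126 CPM in vehicle, and the sum was higher than vehicle in all 9 comparisons, with log2 fold changes from 0.69 to 0.89 and adjusted p-values of at most 2.19e-08 (edgeR's quasi-likelihood test). The share of the sum assigned to HSPA1A was 47.9% to 56.9% in extract libraries against 41.2, 42.4 and 46.1% in vehicle. The shares did not overlap, and whether the estimate or the transcripts moved was not tested. The plot of the pair shows the sum clearly apart from vehicle and the share only slightly so.

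**Figure D2:**
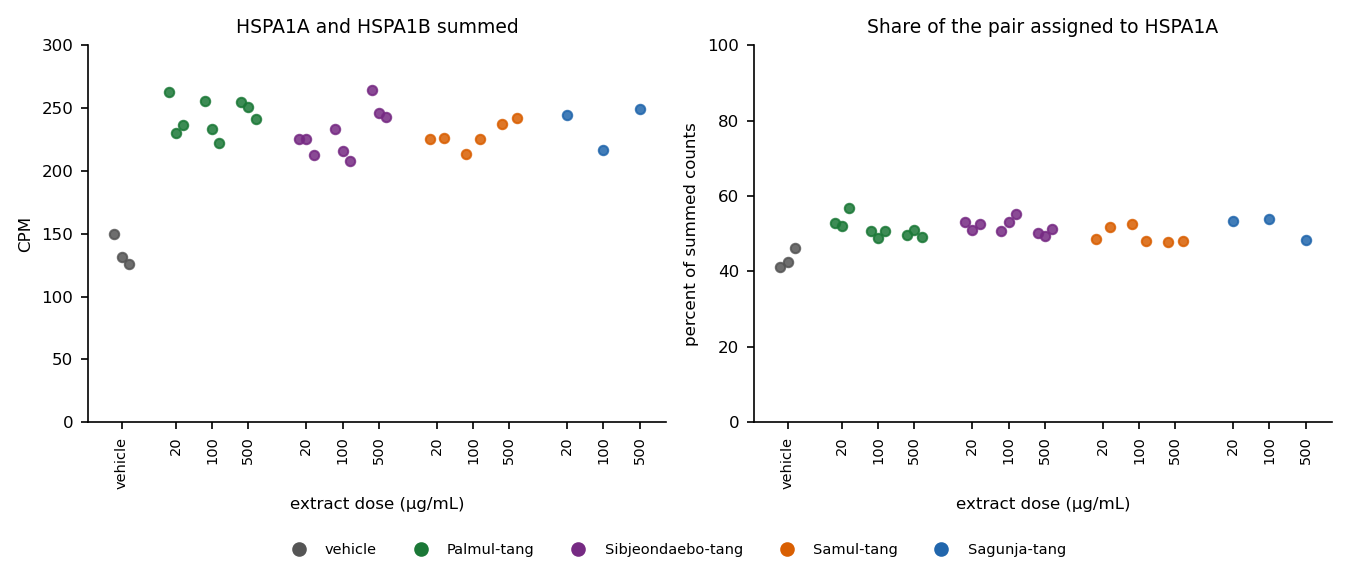
Left, summed CPM of HSPA1A and HSPA1B in every library, and right, the percent of that sum assigned to HSPA1A, by extract dose in µg/mL with vehicle at the left. The sum lies at 208 to 265 CPM in extract libraries and 126 to 149.6 CPM in vehicle, and the share at 47.9% to 56.9% in extract libraries and 41.2% to 46.1% in vehicle.

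HSPA8 (chromosome 11, 123057489 to 123063230) encodes the constitutive HSC70, which handles newly made proteins and clathrin coats. Its 3 Palmul-tang libraries per dose had 1920.2, 1804 and 1825 CPM at 20 µg/mL, 1844, 1820.1 and 1891 CPM at 100 µg/mL and 1898, 1985 and 1990.1 CPM at 500 µg/mL. The Sibjeondaebo-tang libraries had 1840, 1692 and 1814 CPM at 20 µg/mL, 1935, 1878 and 1917 CPM at 100 µg/mL and 2011, 2025 and 2094 CPM at 500 µg/mL, and the Samul-tang libraries 1794 and 1716 CPM at 20 µg/mL, 1942 and 1702 CPM at 100 µg/mL and 1797 and 1803 CPM at 500 µg/mL. The vehicle libraries had 1197, 1071 and 1038 CPM. No extract library came near the vehicle range, and with Sibjeondaebo-tang all libraries at the high dose lay above all at the medium dose, and those above all at the low dose. The log2 fold changes over vehicle were 0.75 ± 0.053, 0.75 ± 0.053 and 0.83 ± 0.053 under Palmul-tang, 0.69 ± 0.052, 0.79 ± 0.053 and 0.89 ± 0.053 under Sibjeondaebo-tang and 0.67 ± 0.058, 0.73 ± 0.058 and 0.71 ± 0.058 under Samul-tang from low to high dose, with adjusted p-values between 6.26e-14 and 7.39e-09. Per kilobase of transcript, HSPA8 averaged 759 CPM in extract libraries and 447 CPM in vehicle, where HSPA1A averaged 48.4 and 23.6 CPM, so in level the constitutive gene was the larger part of the HSP70 transcripts. The 17 rows of HSPA8 pseudogenes held at most 0.0825% of the counts of HSPA8 and those rows together.

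Both exchange factors among the 10 members, which release clients from HSP70, were also higher at all 9 tested doses. HSPH1 (chromosome 13, 31134974 to 31162388), an HSP110 protein, had 138, 127 and 133 CPM at 20 µg/mL, 140.3, 128 and 135 CPM at 100 µg/mL and 143, 148 and 148 CPM at 500 µg/mL with Sibjeondaebo-tang, 124 to 140.1 CPM over the Palmul-tang and Samul-tang libraries, and 110.2, 102 and 104 CPM in vehicle. BAG3 (chromosome 10, 119651370 to 119677819), which also couples HSP70 to small heat shock proteins and to autophagy, had 43.2, 44.5 and 41.0 CPM at 20 µg/mL, 47.5, 43.2 and 45.5 CPM at 100 µg/mL and 50.2, 52.1 and 55.1 CPM at 500 µg/mL with Sibjeondaebo-tang. It had 43.3, 45.2 and 47.5 CPM at 20 µg/mL, 44.8, 49.9 and 48.9 CPM at 100 µg/mL and 52.7, 50.4 and 49.2 CPM at 500 µg/mL with Palmul-tang, 40.8 and 43.0 CPM at 20 µg/mL, 44.5 and 39.4 CPM at 100 µg/mL and 41.4 and 48.3 CPM at 500 µg/mL with Samul-tang, and 33.4, 33.6 and 36.2 CPM in vehicle. For both genes all extract libraries lay above all vehicle libraries, and the highest library of each was a Sibjeondaebo-tang high one. Log2 fold changes over vehicle from low to high dose were 0.34, 0.35 and 0.38 for HSPH1 under Palmul-tang, 0.33, 0.36 and 0.48 under Sibjeondaebo-tang and 0.28, 0.32 and 0.31 under Samul-tang. For BAG3 they were 0.40, 0.48 and 0.56 under Palmul-tang, 0.32, 0.40 and 0.61 under Sibjeondaebo-tang and 0.28, 0.29 and 0.38 under Samul-tang. All 18 were significant in edgeR's quasi-likelihood test, with the largest adjusted p at 0.00739 for BAG3. With Samul-tang, which has 2 libraries per dose, the BAG3 call at the medium dose was lost without replicate 2 (0.20, adjusted p = 0.165) and that at the low dose without replicate 3 (0.24, adjusted p = 0.125).

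DNAJB1 (chromosome 19, 14514770 to 14529770), the J-domain partner that starts the HSP70 cycle and is itself a heat shock gene, differed little. It had 134 to 156 CPM in extract libraries and 126 to 143 CPM in vehicle, with 20 of 27 extract libraries above the highest vehicle library. It was called higher with Palmul-tang medium (0.14 ± 0.051, adjusted p = 0.0487), Sibjeondaebo-tang high (0.14 ± 0.051, adjusted p = 0.0346) and Samul-tang medium (0.18 ± 0.057, adjusted p = 0.0208) in edgeR's quasi-likelihood test. Each of these calls was lost under some alternative. With no filter on low counts the adjusted p was 0.0688 at Palmul-tang medium and 0.109 at Sibjeondaebo-tang high. Within the groups compared it was 0.0757 at Palmul-tang medium and 0.194 at Samul-tang medium, where it was 0.0724 after correction for transcript GC and length. Without vehicle replicate 3 all 3 were lost (0.127 to 0.26). HSP90AA1 (chromosome 14, 102080738 to 102139699), the inducible HSP90 that matures kinases and receptors, had 1662 to 1904 CPM in extract libraries and 1632, 1626 and 1592 CPM in vehicle, so the groups were close but did not overlap. Its log2 fold changes ran from 0.12 to 0.23, and Samul-tang medium (adjusted p = 0.0793) and high (adjusted p = 0.0649) missed the threshold in edgeR, though DESeq2 called both (0.0222 and 0.0106). The call at Samul-tang low was lost with no filter (0.0813), within the groups compared (0.0792) and without any single vehicle or Samul-tang low library (0.0638 to 0.332). That at Sibjeondaebo-tang low was lost with no filter (0.053) and without any single vehicle library (0.0546 to 0.108). It was also lost without low replicate 3, the library with fibroblast transcripts, and over all alternatives its adjusted p reached 0.155. That at Palmul-tang low was lost without vehicle replicate 3 (0.0565) or its own replicate 1 (0.0564). HSPB1 (chromosome 7, 76302544 to 76304295), a small heat shock protein that holds unfolded clients without ATP, had 52.6 to 70.7 CPM in extract libraries and 52.1, 57.6 and 53.3 CPM in vehicle. Of its 27 extract libraries 25 lay above vehicle, and it was called higher at every Palmul-tang dose and at the medium and high doses of Sibjeondaebo-tang, with log2 fold changes from 0.11 to 0.29 over all 9 comparisons. Without vehicle replicate 1, 4 of these 5 calls were lost (adjusted p of 0.116 and 0.119 at Palmul-tang high and low, 0.127 and 0.056 at Sibjeondaebo-tang high and medium), and without vehicle replicate 3, 3 of them (0.094, 0.101 and 0.0665 for the first 3 in that order). Over all alternatives the adjusted p of HSPB1 reached 0.294 at Palmul-tang high and 0.256 at Palmul-tang low. Its libraries there had 58.5, 70.7 and 59.1 CPM at the high dose and 61.9, 57.7 and 69.4 CPM at the low dose.

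The mitochondrial chaperonin genes gave 1 call between them against vehicle. HSPD1 (chromosome 2, 197486581 to 197516737), which encodes the folding chamber HSP60, had 1930.1, 1853 and 1906 CPM at 20 µg/mL, 2044, 1953 and 1929 CPM at 100 µg/mL and 2095, 2194 and 2154 CPM at 500 µg/mL with Sibjeondaebo-tang and 1953, 1950.3 and 1925 CPM in vehicle. With Palmul-tang it had 1814, 1905 and 1872 CPM at 20 µg/mL, 2029, 1956 and 1913 CPM at 100 µg/mL and 2023, 2033 and 2129 CPM at 500 µg/mL, and with Samul-tang 2044 and 1890.1 CPM at 20 µg/mL, 2027 and 2072 CPM at 100 µg/mL and 2014 and 1983 CPM at 500 µg/mL. The low-dose libraries of Palmul-tang and Sibjeondaebo-tang all lay below the highest vehicle library, and their high-dose libraries all lay above it. Sibjeondaebo-tang high alone was called (0.14 ± 0.043, adjusted p = 0.00954), while the other 8 log2 fold changes lay between -0.060 and 0.086. That call was lost with no filter on low counts (adjusted p = 0.0657) and without Sibjeondaebo-tang high replicate 3 (0.055), while DESeq2 also called Palmul-tang high (0.0297). HSPE1 (chromosome 2, 197499994 to 197503457), its lid HSP10, had 339.9 to 576 CPM in extract libraries and 317, 393 and 423 CPM in vehicle. That vehicle scatter, a coefficient of variation of 14.4%, was the widest of the 10 genes, and none of the HSPE1 differences of 0.11 to 0.41 passed, with SEs of 0.16 to 0.18. With no filter on low counts the fit gave HSPE1 a smaller error and called it higher at 8 of the 9 doses. HSPD1 and HSPE1 overlap on opposite strands of chromosome 2, and the sources used here do not give whether counting used strand, so reads of the overlap may be assigned to either.

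**Figure D3:**
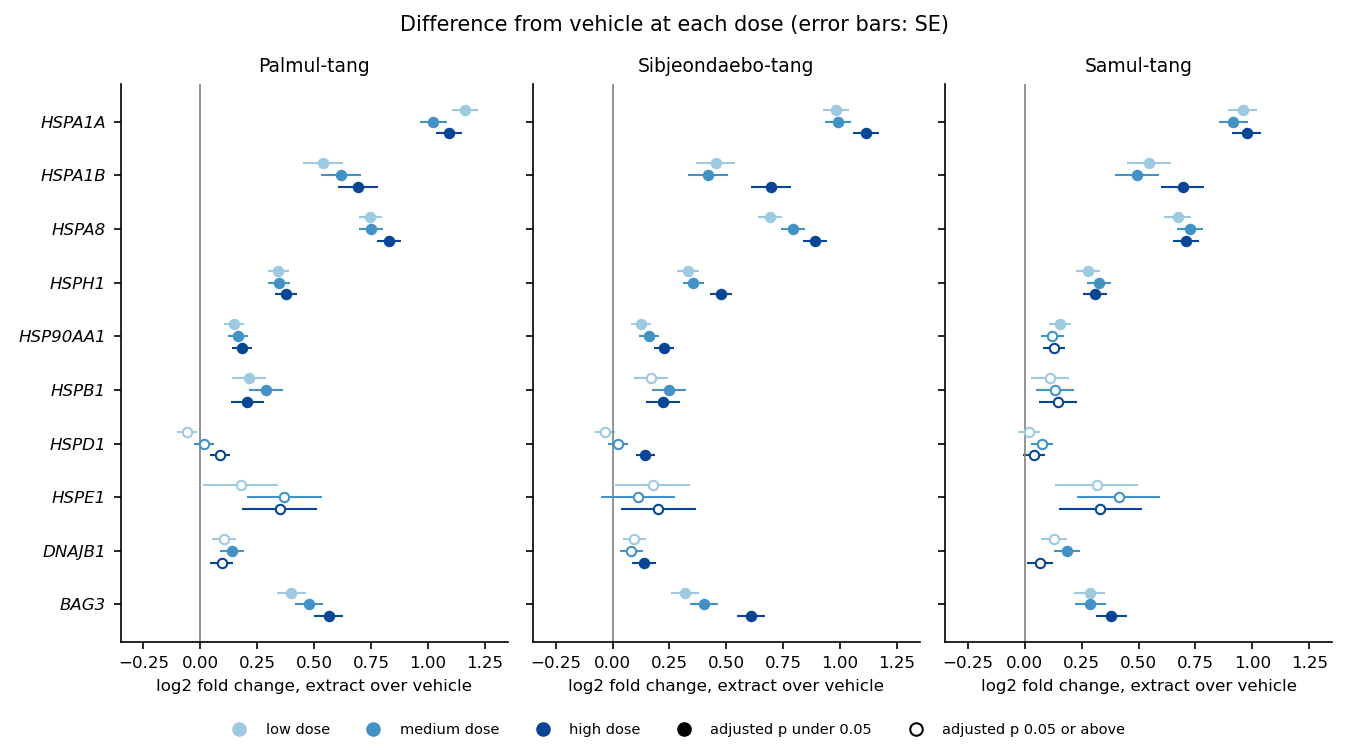
Log2 fold change over vehicle (x) of each heat shock gene (rows) in 1 panel per formula, with 1 point per dose (darker for higher), bars of 1 SE, and filled points at an adjusted p under 0.05 (edgeR, 16083 genes). HSPA1A, HSPA1B, HSPA8, HSPH1 and BAG3 have 9 filled points each over the 3 panels, and HSPA1A lies farthest right at 0.92 to 1.16.

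The comparison of high with low dose lies within a library set and asks for a dose response directly. With Palmul-tang 1 of 10 members was called, where 3.75% of all tested genes were called higher: HSPD1, at 0.15 ± 0.043 on the log2 scale (adjusted p = 0.0367). With Sibjeondaebo-tang 4 were called, against 10.4% of all genes: BAG3 at 0.29 ± 0.061 (adjusted p = 0.000786), HSPA8 at 0.20 ± 0.052 (adjusted p = 0.00678), HSPD1 at 0.18 ± 0.043 (adjusted p = 0.00325) and HSPH1 at 0.15 ± 0.047 (adjusted p = 0.0259). With Samul-tang none was called, against 0.709% of all genes, and none reached an unadjusted p under 0.05 (edgeR's quasi-likelihood test). DESeq2 also called none there. The median high-minus-low difference of the members was 0.059 under Palmul-tang, 0.14 under Sibjeondaebo-tang and 0.028 under Samul-tang, beside 0.0016, 0.020 and -0.0016 over all tested genes. The HSPD1 call with Palmul-tang was lost without any single high or low library of that formula. It was also lost within the groups compared (adjusted p = 0.156) and with no filter on low counts (0.154). With Sibjeondaebo-tang, the HSPH1 call was lost with median-ratio factors (0.0599), with no filter (0.238) and without low replicate 2 (0.149), low replicate 3, the library with fibroblast transcripts (0.065), high replicate 2 (0.0849) or high replicate 3 (0.145). The HSPA8 call was lost without low replicate 2 (0.0623) or high replicate 3 (0.0738), and the HSPD1 call with no filter (0.052).

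HSPA1A itself was not called in any high against low comparison, although with replicate number as a block it was called with Sibjeondaebo-tang (adjusted p = 0.0445). Its difference was -0.072 ± 0.056 with Palmul-tang (95% interval -0.19 to 0.045), 0.13 ± 0.056 with Sibjeondaebo-tang (0.011 to 0.25) and 0.018 ± 0.068 with Samul-tang (-0.13 to 0.16). The interval of Sibjeondaebo-tang lies just above 0, but its adjusted p was 0.105. The sum of HSPA1A and HSPA1B, which is free of the division of reads, gave 0.035, 0.18 and 0.085 in the same order, and the Sibjeondaebo-tang value was called (SE 0.059, adjusted p = 0.0264, edgeR's quasi-likelihood test). HSPA1B was at 0.24 ± 0.086 with Sibjeondaebo-tang and missed the threshold (adjusted p = 0.0515), but was called by DESeq2 (0.0429), with no filter (0.00285), within the groups compared (0.00153) and with the replicate block (0.00336). A joint test of any difference among the 3 doses called BAG3, HSPD1, HSPA8 and HSPA1B with Sibjeondaebo-tang (adjusted p of 0.00215, 0.00976, 0.0233 and 0.0473), where 16.0% of all genes were called. It called no member with Palmul-tang or Samul-tang, where 5.03% and 1.60% of all genes were called, with unadjusted p under 0.05 for 2 and 0 members. Without Sibjeondaebo-tang low replicate 3 the joint test called 3 members.

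To set the difference from vehicle against the dose response, the step from vehicle to 20 µg/mL was compared with the step from 20 to 500 µg/mL in one contrast, which is positive where the first step is the larger. For HSPA1A it was 1.24 ± 0.096, 0.86 ± 0.096 and 0.94 ± 0.11 for the 3 formulas in the order Palmul-tang, Sibjeondaebo-tang, Samul-tang, and for HSPA8 0.67 ± 0.089, 0.50 ± 0.090 and 0.64 ± 0.11 in that order, all 6 significant in edgeR's quasi-likelihood test with adjusted p-values of at most 0.0012. HSPA1B, which shares reads with HSPA1A, passed with no formula (0.38, 0.21 and 0.40, adjusted p of 0.131, 0.385 and 0.333 in that test). The sum of HSPA1A and HSPA1B gave 0.81 ± 0.10, 0.52 ± 0.10 and 0.65 ± 0.12. All 3 passed the same edgeR test, with adjusted p-values of at most 0.00351. HSPH1 passed with Palmul-tang alone (0.31). The members called numbered 3 under Palmul-tang, 2 under Sibjeondaebo-tang and 2 under Samul-tang, all with the first step larger, where 3.61%, 7.74% and 1.02% of all genes were called in that direction. BAG3, by contrast, had values of 0.24, 0.027 and 0.19 that did not pass, and HSPD1 had -0.21, -0.21 and -0.0050. The xenobiotic metabolism gene AKR1B10, an aldo-keto reductase, had the other layout in the same fit. It was 1.36 to 1.63 higher at the high than at the low dose on the log2 scale in the 3 formulas, while its low dose differed from vehicle by -0.15 ± 0.062, -0.13 ± 0.061 and -0.068 ± 0.069, none of them called. CYP1A1, a target of the aryl hydrocarbon receptor, was 1.93 to 3.40 higher at the high than at the low dose and was also called higher than vehicle at all 9 doses. The step contrast includes the vehicle libraries, so its first step carries the set difference and its second does not.

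**Figure D4:**
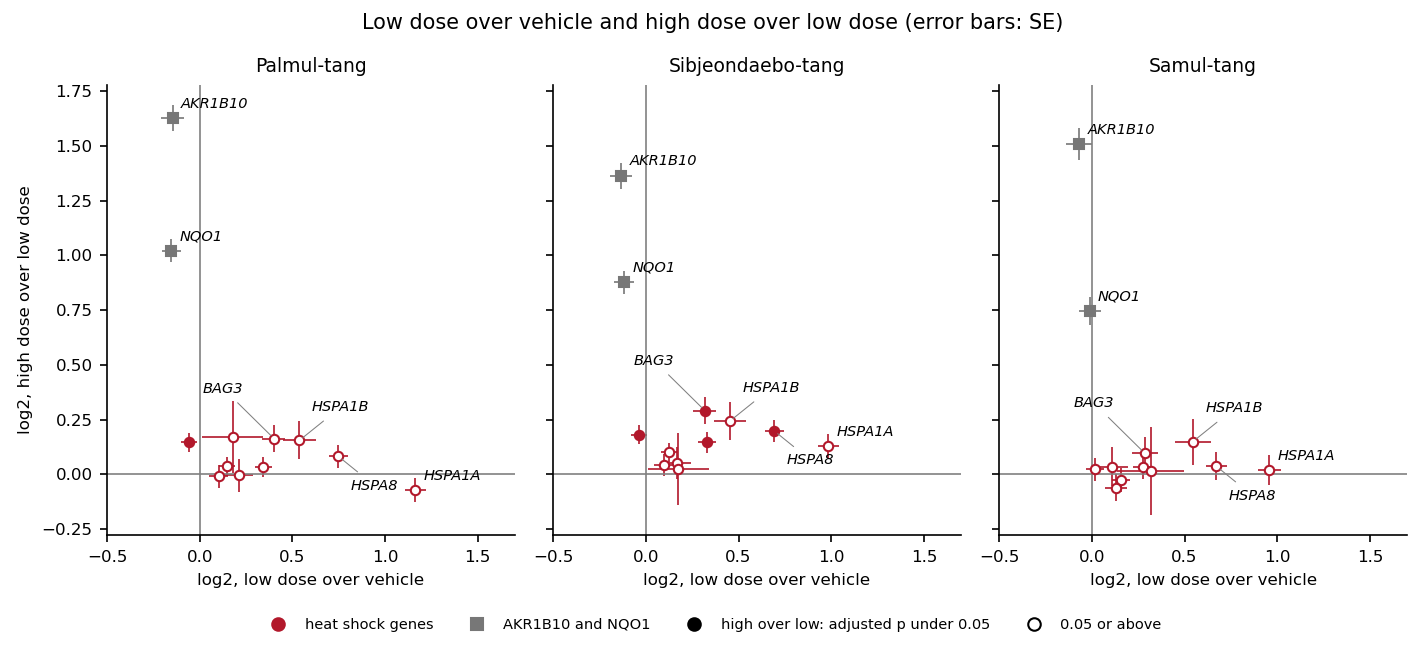
Log2 difference of 20 µg/mL from vehicle (x) against log2 difference of 500 from 20 µg/mL (y) for each heat shock gene (circles, filled where the dose difference has an adjusted p under 0.05) and for AKR1B10 and NQO1 (squares), 1 panel per formula, with bars of 1 SE. HSPA1A lies far to the right at 0.96 to 1.16 and near 0 on the y axis, while HSPD1 lies near 0 on the x axis and at up to 0.18 on the y axis.

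Sibjeondaebo-tang and Palmul-tang, which share a library set and by tradition differ by 2 added herbs, were compared at matched doses of whole extract. The amounts of the shared herbs need not match at such doses. No member was called at any dose by edgeR's quasi-likelihood test, where 0% of all tested genes were called either way at the low dose, 0.0311% at the medium dose and 6.47% at the high dose. DESeq2 called none either, and 1 member per dose had an unadjusted p under 0.05. At the low dose HSPA1A had 119.8, 115 and 112 CPM with Sibjeondaebo-tang against 139, 119.7 and 135 CPM with Palmul-tang, and the ranges just overlapped. Its log2 differences were -0.18 (95% interval -0.30 to -0.062) at the low, -0.034 (95% interval -0.15 to 0.084) at the medium and 0.021 (95% interval -0.096 to 0.14) at the high dose. Those of HSPA8 were -0.054 (95% interval -0.16 to 0.056), 0.045 (95% interval -0.065 to 0.15) and 0.062 (95% interval -0.048 to 0.17) in that order. A miss of the threshold does not show that the formulas act alike, and these intervals bound the differences. No member was called in the comparison of high-minus-low differences between formulas by edgeR or DESeq2, with an unadjusted p under 0.05 for 1 member at Sibjeondaebo-tang against Palmul-tang, 0 at Samul-tang against Palmul-tang and 1 at Samul-tang against Sibjeondaebo-tang. Thus the larger number of dose calls with Sibjeondaebo-tang is not shown to be a difference between formulas. Of all tested genes 2.00% were called for Sibjeondaebo-tang against Palmul-tang, 0.0124% for Samul-tang against Palmul-tang and 1.68% for Samul-tang against Sibjeondaebo-tang.

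Sagunja-tang had a single library per dose and no test. On the log2 scale with a prior count of 2, its differences from the vehicle mean at 20, 100 and 500 µg/mL were 1.16, 1.00 and 1.05 for HSPA1A, 0.57, 0.38 and 0.74 for HSPA1B and 0.72, 0.75 and 0.78 for HSPA8. They were 0.34, 0.38 and 0.45 for HSPH1 and 0.44, 0.44 and 0.53 for BAG3. The first 3 genes were thus displaced from vehicle by about as much as with the other formulas, with no replicate to give an error. HSPD1 was at -0.019, 0.086 and 0.14, HSP90AA1 at 0.16, 0.17 and 0.21, and HSPB1 at 0.21, 0.16 and -0.046. DNAJB1 was at 0.12, 0.13 and 0.19 and HSPE1 at 0.28, 0.52 and 0.24.

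Other chaperone genes, taken from lists drawn up with earlier results of these data known, were counted in the same fit. Of 12 HSP90 and co-chaperone genes, 5, 6 and 9 were higher than vehicle with Palmul-tang at low, medium and high dose, 4, 8 and 11 with Sibjeondaebo-tang and 5, 7 and 7 with Samul-tang, and the ubiquitin ligase gene STUB1 was lower in 3 comparisons. Of all tested genes, 11.5%, 11.6% and 16.3% were called higher with Palmul-tang from low to high dose. With Sibjeondaebo-tang the shares were 11.5%, 15.3% and 19.3%, and with Samul-tang 6.47%, 10.3% and 9.82%. PPID, the cyclophilin that docks on HSP90, stood at 67.1 to 88.4 CPM over the 27 extract libraries and 52.7 to 55.6 CPM over the vehicle libraries and was higher at all 9 doses with log2 fold changes of 0.34 to 0.67. CHORDC1, an HSP90-binding protein, was also higher at all 9 (0.53 to 0.62), as was STIP1, which bridges HSP70 to HSP90 (0.23 to 0.35). The median of the 12 at the high dose was 0.25 under Palmul-tang, 0.24 under Sibjeondaebo-tang and 0.23 under Samul-tang, beside -0.0087, -0.0087 and -0.0040 over all tested genes. By dose, 3 of the 12 were higher at high than at low dose under Palmul-tang, 7 under Sibjeondaebo-tang and 0 under Samul-tang. The shares of all tested genes were 3.75%, 10.4% and 0.709% in that order. Among 9 J-domain genes, DNAJB4 (0.56 to 1.00) and DNAJA1 (0.15 to 0.39), partners of cytosolic HSP70, were higher at all 9. DNAJC7 was higher at 7 of the 9 doses, DNAJB2 at 6 and DNAJA2 at 1. DNAJB5, at only 1.1 to 2.6 CPM in extract libraries and 1.8 to 2.4 CPM in vehicle, was lower at each high dose.

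Of the 8 subunits of the cytosolic chaperonin CCT, which folds actin and tubulin, none was higher than vehicle at the low dose of any formula. At that dose 11.5%, 11.5% and 6.47% of all tested genes were, with Sibjeondaebo-tang, Palmul-tang and Samul-tang. Yet 7 subunits were higher at high than at low dose with Sibjeondaebo-tang, 1 with Palmul-tang and 0 with Samul-tang, beside 10.4%, 3.75% and 0.709% of all tested genes. CCT4 differed by 0.23 ± 0.055 with Sibjeondaebo-tang, and the median of the 8 was 0.16, beside 0.020 over all tested genes. Of 9 mitochondrial folding and protease genes, 5, 2 and 0 were higher by dose in the same order, and of 7 tested HSP70 and HSP110 relatives 4, 0 and 0, with HSPA4, another HSP110 protein, at 0.20 ± 0.041 with Sibjeondaebo-tang, to be read against the same shares of all genes. BAG2, an inhibitor of client degradation by HSP70, was higher at the high dose in all 3 formulas, by 0.28 to 0.35. BAG5, from the same list of exchange factors, was lower than vehicle at 8 of 9 doses, with log2 fold changes of -0.24 to -0.088. From that list BAG2 and ST13 were each higher than vehicle at 6 of the 9 and BAG6 at 1. Of 10 endoplasmic reticulum chaperones, 7, 7 and 7 were higher than vehicle from low to high dose under Palmul-tang, 6, 7 and 7 under Sibjeondaebo-tang and 4, 6 and 4 under Samul-tang, with MANF (0.35 to 0.48) and DNAJB11 (0.29 to 0.44) higher at all 9. Over these 9 comparisons the share of all tested genes called higher ran from 6.47% (Samul-tang low) to 19.3% (Sibjeondaebo-tang high). HSF1 stood at 54.0 to 71.9 CPM over the 27 extract libraries and 52.3 to 55.9 CPM over the vehicle libraries and was called higher at 8 of 9 doses (0.15 to 0.38), and HSF2 was lower at each high dose. Of the small heat shock genes besides HSPB1 3 were tested, and CRYAB was higher with Sibjeondaebo-tang high alone. Its level was near the floor, at 0.23 to 0.78 CPM over the extract libraries and 0.22 to 0.55 CPM over the vehicle libraries.

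**Figure D5:**
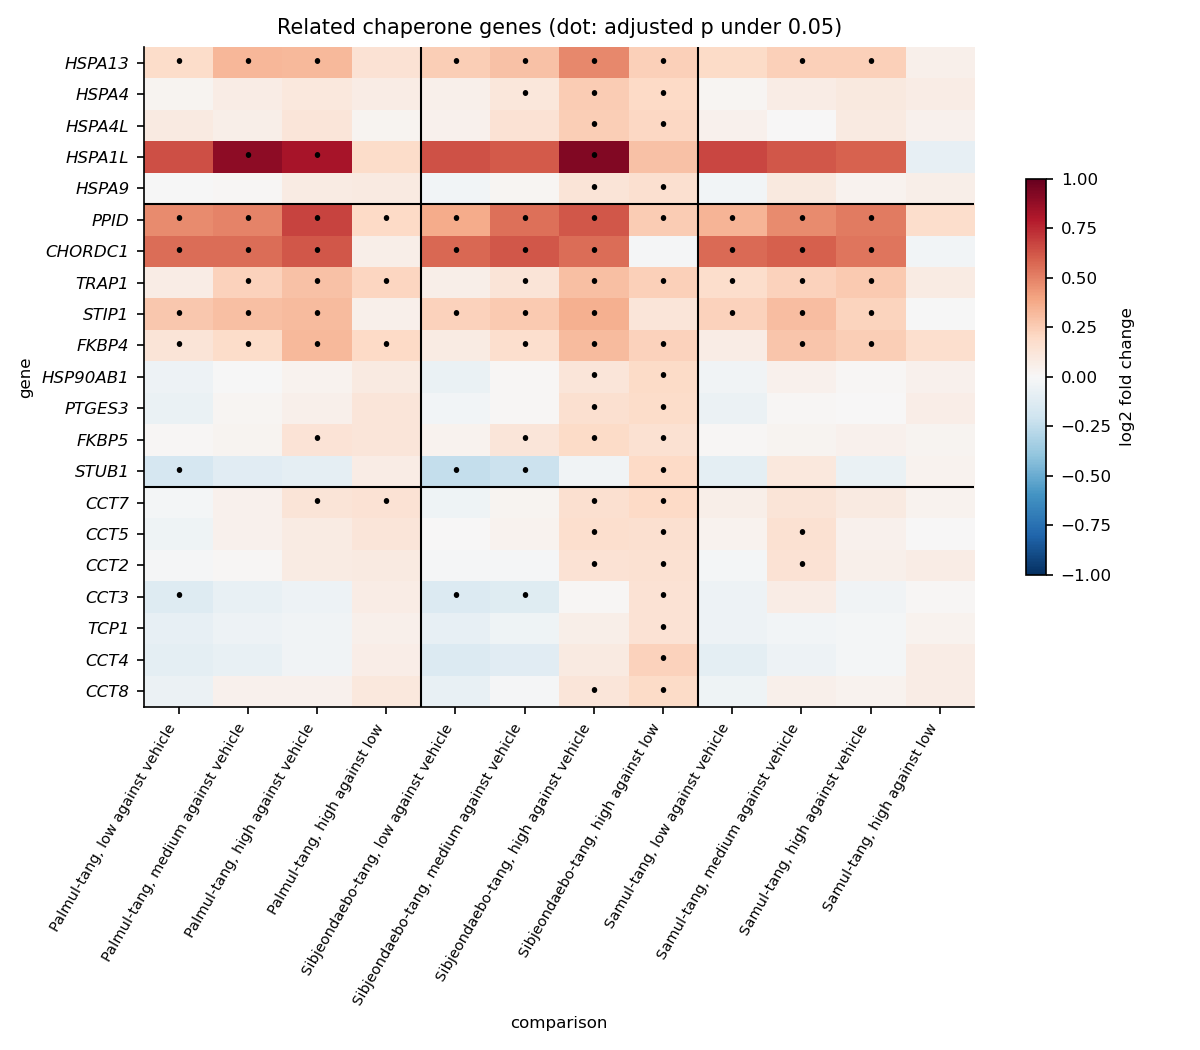
Log2 fold change (colour, -1 to 1) of genes from the lists of HSP70 relatives, HSP90 and co-chaperones, and CCT subunits (rows) in each comparison with vehicle and at high against low dose (columns), with a dot at an adjusted p under 0.05 (edgeR). The rows are not the full lists: genes were picked by smallest adjusted p against vehicle or by a call at high against low dose. PPID, CHORDC1 and STIP1 carry a dot in all 9 comparisons with vehicle. The CCT subunits carry 7 dots at high against low dose with Sibjeondaebo-tang, where a call was itself a reason to be shown.

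Across the 12 extract groups, genes were ranked by how closely their mean log2 CPM followed HSPA1A or HSPA8, as a description over groups that share library sets and, for each formula, a dose series. The group means of HSPA1A spanned only 0.25 and those of HSPA8 0.22 on the log2 scale, so the ranking reads small differences. Of 10635 genes the nearest to HSPA1A were ZBTB7B (Pearson r = 0.82), PCDHGC3 (0.80), RCOR2 (0.80) and NUP210 (0.79), followed by REXO1, BLOC1S5, MBOAT7 and ATP13A1 (0.77). The nearest to HSPA8 were ZDHHC9 (0.95), RSPRY1 (0.95), EPS8 (0.94) and CKAP4 (0.92), followed by LIG3, USP10, TUBA1B and TPM3 (0.90). Among the members, BAG3 (r = 0.86) and HSPH1 (0.84) lay close to HSPA8, whereas HSPA1A (0.43) and HSPA1B (0.38) did not, and r between HSPA1A and HSPA1B was 0.34.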

How the data were processed

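The authors deposited RSEM expected counts per Ensembl gene, of which 8.56% were not whole numbers. The submitters' processing notes name STAR 2.7.3a, RSEM 1.3.3, Trim Galore 0.6.5 and FastQC 0.11.9 with build hg38. Annotation release and strand setting of counting: not given in the sources used here. A further 240 columns of the deposited table match no sample analysed and were not used. Of 60675 rows, 41209 were given a symbol. Estimated counts were rounded, filtered with filterByExpr (minimum 10, total 15) and scaled by the trimmed mean of M-values. Two-sided quasi-likelihood tests in edgeR 4.0.16 (R 4.3.3) used 1 fit over the 27 libraries of the 10 groups with replicates, with 17 residual degrees of freedom, a biological coefficient of variation of 5.47% and Benjamini-Hochberg adjustment over 16083 genes in each of 24 comparisons. SE was taken as the log2 fold change over the square root of F, and 95% intervals from the t distribution. CPM were scaled over all 30 libraries. The procedure was checked on simulated counts. All members were named; from each other list, up to 4 genes with the smallest adjusted p against vehicle and any called at high against low could be named. Alternatives were DESeq2 1.42.0, median-ratio factors, no filter, only the groups compared, an offset for GC content and length, HSPA1A and HSPA1B summed, a replicate block, another prior count and leaving out each library. Members and lists were chosen with earlier results of these data known. The labels give 0.1% DMSO, while the series text gives another share.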

Additional observations from a re-analysis of the deposited data

How the results depend on the processing

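Of the gene values recomputed under an alternative, 1422 kept their direction and their side of the threshold, 67 lost a call, 22 gained one and 27 changed sign, none of the last being called either way. HSPA1A and HSPA8 were called higher than vehicle at all 9 doses under every alternative run. The cause of the changes listed next was not tested, beyond the fewer libraries or more genes that an alternative uses. Compared within the groups concerned only, 2 members (6 in the full fit) were called at Samul-tang medium, where 233 genes in all were called against 3188 in the full fit, with HSPA1B, HSPH1 and BAG3 at adjusted p-values of 0.0556, 0.0556 and 0.0927. That setting also called 0 members at Palmul-tang high against low (1 in the full fit) and 1 lower in the Sibjeondaebo-tang step contrast (0). With no filter on low counts 0 members were called at Palmul-tang high against low, 1 in the Palmul-tang joint test (0), 2 in the Sibjeondaebo-tang joint test (4) and 1 lower for Sibjeondaebo-tang against Palmul-tang at both the high and the medium dose (0). DESeq2 called 1 member in the Palmul-tang joint test and 1 lower in each of the Palmul-tang and Sibjeondaebo-tang step contrasts (0). With single libraries left out, members called ranged from 0 to 0 at Palmul-tang high against low, 2 to 4 at Sibjeondaebo-tang high against low (2 without low replicate 2 or high replicate 3) and 0 to 5 in the Sibjeondaebo-tang joint test (0 without high replicate 3, 1 without high replicate 2, 2 without low replicate 2 or medium replicate 3). They ranged from 1 to 2 in the Samul-tang step contrast (1 without low replicate 2), and those called lower from 0 to 1 in the Sibjeondaebo-tang step contrast (1 without high replicate 1). HSPE1 was at -0.0050 with no filter and -0.062 with the GC and length offset for Sibjeondaebo-tang high against low, and at -0.032 with that offset for Samul-tang. HSPD1 against vehicle was at -0.0051 (Palmul-tang medium), -0.0016 (Sibjeondaebo-tang medium) and -0.0034 (Samul-tang low) with the offset, and HSPA1A at Palmul-tang high against low was at 0.035 when summed with HSPA1B. With single libraries left out, Samul-tang high against low ran over -0.017 to 0.20 for BAG3, -0.14 to 0.0082 for DNAJB1, -0.071 to 0.019 for HSP90AA1, -0.031 to 0.070 for HSPA1A, -0.016 to 0.083 for HSPB1, -0.033 to 0.080 for HSPD1, -0.13 to 0.15 for HSPE1 and -0.0055 to 0.072 for HSPH1. Palmul-tang high against low ran over -0.027 to 0.0019 for DNAJB1 and -0.10 to 0.073 for HSPB1, and Sibjeondaebo-tang high against low over -0.011 to 0.070 for DNAJB1 and -0.13 to 0.12 for HSPE1. Against vehicle, the ranges that crossed 0 were -0.0053 to 0.14 for DNAJB1 (Samul-tang high), -0.027 to 0.28 for HSPB1 (Samul-tang medium), and for HSPD1 -0.0060 to 0.037 (Palmul-tang medium), -0.040 to 0.073 (Samul-tang low) and -0.0012 to 0.041 (Sibjeondaebo-tang medium). Counts of all genes at Samul-tang any dose were 424 with DESeq2, 798 with no filter, 9 within the groups concerned, 2259 without medium replicate 3 and 75 without high replicate 2, against 257 in the full fit. At Sibjeondaebo-tang high against low 52.4% of all calls were higher, against 43.0% with median-ratio factors and 39.8% with no filter. Replicate numbers did not pair the libraries throughout (correlations of deviations from -0.335 to 0.341). In the Samul-tang comparisons the correlations were all positive, at 0.106 to 0.32. For Sibjeondaebo-tang medium against Palmul-tang medium they were 0.341, -0.122 and 0.304. With the replicate block, 6 members were called at Sibjeondaebo-tang high against low (4 without), which adds HSPA1A (adjusted p = 0.0445) and HSPA1B (0.00336), 5 in its joint test (4) and 4 in the Palmul-tang step contrast (3), and no other member count moved. Another prior count moved no Sagunja-tang value beyond its rounding. Samul-tang with 2 libraries per dose and Sagunja-tang with 1 limit what could be called there.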
